A study of Mus musculus with 20 samples.

Results

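The genes described here encode the AP-1 transcription factors, and the values are those of the N6-methyladenosine (m6A) peaks on their transcripts in mouse thymocytes. They were chosen by name: Jun, Junb, Jund, Fos, Fosb, Fosl1, Fosl2 and Batf, with every peak that the authors' annotation assigns to one of these symbols. Of the 8 genes, 7 had a peak in at least one table. The authors' deposited table for CD4 and CD8 double-positive (DP) thymocytes held 10 of their peaks in 6 genes, out of 13450 peaks in 6618 genes, and the authors' deposited table for invariant natural killer T (iNKT) cells held 20 of their peaks in 6 genes, out of 12542 peaks in 6774 genes. Fosl1 had no peak in either table, Fosl2 had peaks in iNKT cells only, and Batf had 1 peak, in DP cells.

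Thymocytes from Mettl3fl/flCD4-cre mice, in which Cre under Cd4 control deletes floxed Mettl3, the gene for the enzyme that writes m6A, were compared with wild-type (WT) thymocytes, all labelled C57BL/6 and 6 to 8 weeks old. Cd4 control turns Cre on at about the DP stage, so DP cells were sampled close to the time of deletion and iNKT cells, which branch off from DP cells, after it. DP cells were sorted as 7AAD-, CD1d tetramer-, CD4+ and CD8+, and gave 2 immunoprecipitated and 2 input libraries per genotype. iNKT cells were sorted as 7AAD-, CD1d tetramer+ and TCRbeta+, and gave 3 immunoprecipitated and 3 input libraries per genotype. Each table gives 1 value per peak for a whole comparison, so no value per library, no spread between replicates and no depth can be given, and whether the authors' p-values take in variation between mice is unknown. The protocol text names 2 library methods without assigning them to a cell type, so method and cell type cannot be told apart. In such bulk samples, fewer cells of a type and less RNA per cell cannot be told apart either. Neither table lists a peak in Mettl3, so the deletion could not be checked from these values. Of 6 iNKT markers, 5 had a peak in the iNKT table (Gata3, Il2rb, Klrb1c, Tbx21 and Zbtb16) and 2 in the DP table. Of 7 DP markers, 4 had a peak in the DP table (Cd4, Cd8a, Cd8b1 and Rag1) and 3 in the iNKT table. Of 13 markers of other thymus cells, 1 had a peak in the DP table and 2 in the iNKT table. A peak needs methylation as well as RNA, so a marker without a peak is not shown to be unexpressed.

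AP-1 is a dimer of basic leucine zipper proteins. Jun proteins pair with each other or with Fos proteins, and Batf pairs with Jun proteins to bind DNA together with IRF factors. Several of the genes are immediate early genes, whose short-lived transcripts appear within minutes of antigen receptor signalling, and AP-1 works with NFAT at the enhancers of cytokine genes in T cells. The m6A mark is placed on messenger RNA mainly near the stop codon and in the 3' untranslated region (UTR), at sequences with a GGAC-like core, and is known to influence how long a transcript lasts.

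The log2 fold changes of methylation in the authors' deposited tables carry no stated direction. Values below 0 were read as likely less methylation in Mettl3-deleted than in WT cells, since each deposited gene list (4337 entries for DP cells and 5340 for iNKT cells) holds, besides 1 entry written NA, only genes with a negative peak, and the deletion removes an m6A writer. The words lower and higher rest on this reading, and would swap if it were wrong. A peak passed where the authors' deposited table gives a false discovery rate (FDR) of 0.05 or less for the difference, and fold enrichment is immunoprecipitate over input, as a linear ratio. Coordinates are on mm10.

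The sequences below are shown because 4 iNKT peaks, in Jun, Junb, Fos and Fosb, reach into the first 50 transcribed bases of the gene's RefSeq window and did not change in the same direction. RefSeq windows (GRCm38.p6) were matched for 7 of the 8 genes, and each stretch is given 5' to 3' on the transcript strand, with GGAC or AGAC in capitals. The stretches lie at chr4:95052186-95052215 (minus strand), chr8:84978699-84978718 (minus strand), chr12:85473904-85473933 (plus strand) and chr7:19310012-19310041 (minus strand), in the order of the lines.
Jun: tcaggctggataaGGACtcagagttgcact
Junb: ggGGACtttgagggtggcca
Fos: cgagcaactgagaAGACtggatagagccgg
Fosb: ataAGACtggagcggctacgccggGGACac

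All 50 bases lay inside the peak for Jun, Fos and Fosb, and the last 20 of them for Junb. Fosb held both motifs, which cannot overlap each other, and the other stretches 1 motif each. Over all 32851 RefSeq windows, 33.3% held GGAC or AGAC in the 50 transcribed bases on the transcript strand and 31.9% on the opposite strand. Of the 503 windows whose transcribed bases lie inside an iNKT peak, 34.6% held one on the transcript strand. The motif is thus common at this length, and a match is a description and not a mapped site.

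In DP thymocytes, 9 of the 10 AP-1 peaks did not pass. The 1 that passed, in Jund, was higher in Mettl3-deleted than in WT cells. Among all DP peaks, 0.743% passed as lower and 0.483% as higher in the authors' deposited table. The median log2 fold change over the 10 peaks was 0.28, against 0.0 over all DP peaks. The 95% interval of the AP-1 median, -0.08 to 2.54, held the median of all DP peaks. This interval takes the peaks as independent, although several come from the same gene. It therefore describes their spread and tests no difference. At an unadjusted p of 0.05 none of the 10 was lower and 2 were higher, Jund and a peak of Junb, against 6.5% of all DP peaks lower and 6.18% higher by that cut. Of the 10 peaks, 2 had a negative value, against 49.7% of all DP peaks.

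In iNKT cells, each of the 6 AP-1 genes with a peak had at least 1 that was lower in Mettl3-deleted cells, and 3 of them also had a higher one. Of the 20 peaks, 12 were lower, 3 were higher and 5 did not pass, while 19.8% of all iNKT peaks passed as lower and 5.84% as higher in the authors' deposited table. The median log2 fold change was -1.54 over the AP-1 peaks and -0.98 over all iNKT peaks. Here too the 95% interval of the AP-1 median, -3.18 to -0.49, held the median of all iNKT peaks, with the same limit. Strong peaks passed more often: 15 of the 20 lay in the strongest 25% of iNKT peaks by the p-value of the peak. Of these 15, 11 were lower and 2 were higher, against 62.8% lower and 4.02% higher among all peaks of that strength, so the share of lower AP-1 peaks was much nearer to this background than to that of all peaks. By gene, 26.2% of all genes with an iNKT peak had a lower one, and 36.6% of genes with 2 to 4 peaks, the range of the AP-1 genes. Peak strength and peak number therefore moved with the counts, and their part in them was not tested.

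**Figure D1:**
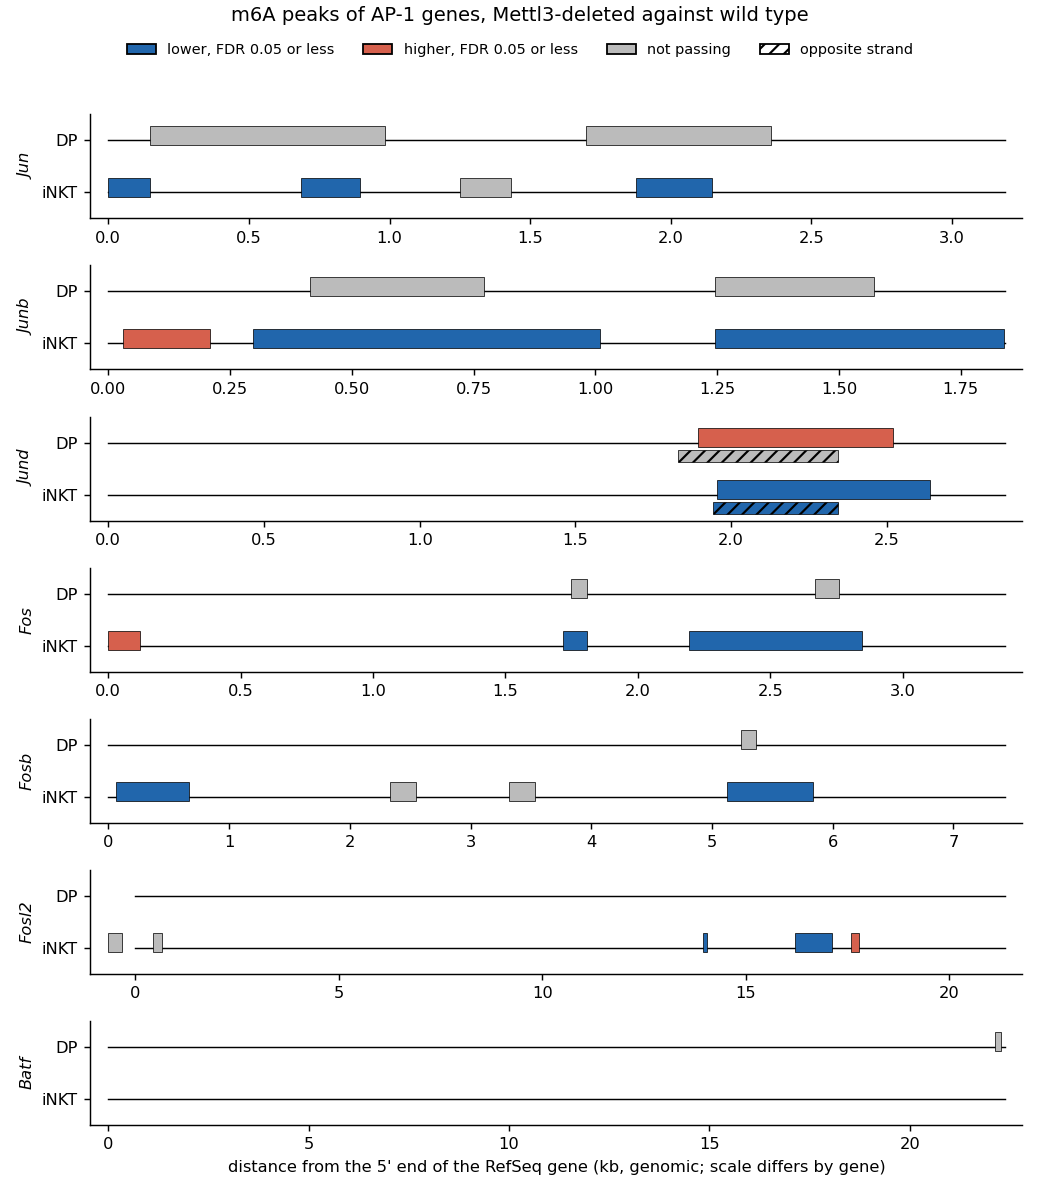
m6A peaks of 7 AP-1 genes by distance in kb from the 5' end of the RefSeq gene (scale differs by gene), with DP cells above iNKT cells. Blue blocks were lower in Mettl3-deleted than in WT cells, red blocks higher and grey blocks did not pass the FDR of 0.05; hatched blocks lie on the strand opposite to the gene. All 6 genes with iNKT peaks have a blue block, and the only coloured DP block is the red one of Jund.

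**Figure D2:**
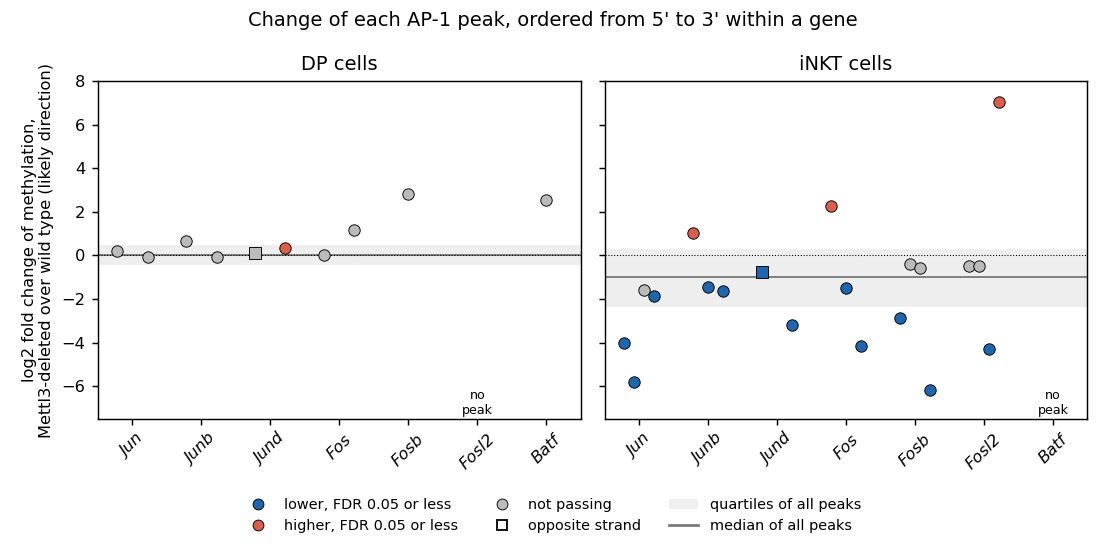
Log2 fold change of methylation, Mettl3-deleted over WT (likely direction), for each AP-1 peak, ordered from 5' to 3' within a gene, in DP (left) and iNKT cells (right). The grey band spans the quartiles of all peaks of that table and the grey line is their median (0.0 in DP cells, -0.98 in iNKT cells); values run between -0.09 and 2.81 in DP cells and between -6.15 and 7.05 in iNKT cells.

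Jun encodes c-Jun, the founding partner of AP-1 dimers, from a gene annotated with 1 exon of 3187 nt. In iNKT cells the authors' deposited table listed 4 Jun peaks, and 3 of them were lower. The peak at the transcription start (chr4:95052073-95052222, 5' UTR), which holds the Jun stretch above, fell by 4.0 on the log2 scale (FDR 0.0029), with a fold enrichment of 22.9 in the authors' deposited table. The next peak, 685 nt downstream of the start and also annotated 5' UTR (chr4:95051328-95051537), fell by 5.80 (FDR 4e-14) in the authors' deposited table. This was the second lowest value among the 20 AP-1 peaks. An exon peak (chr4:95050792-95050971) did not pass, standing at -1.60 in the authors' deposited table (FDR 0.17). The 3' UTR peak (chr4:95050077-95050345) fell by 1.84 (FDR 1e-16) in the authors' deposited table, with a fold enrichment of 4.74. The changes at the 5' end of Jun were thus larger than that at its 3' end, a difference for which the table gives no error.

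In DP cells both Jun peaks were wider and neither passed. The 5' UTR peak of 835 nt (chr4:95051239-95052073) was listed at 0.22 (FDR 0.40), and the 3' UTR peak of 657 nt (chr4:95049868-95050524) at -0.09 (FDR 0.65) in the authors' deposited table. The 3' UTR peak had a fold enrichment of 17.8, higher than 93.5% of DP peaks. Peaks covered 46.8% of the length of Jun in DP cells and 25.4% in iNKT cells.

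Junb encodes a Jun protein that often opposes c-Jun in growth control, also from 1 annotated exon (1840 nt). Its 3 iNKT peaks all passed, and the first went the opposite way to the other 2. Starting 30 nt from the transcription start, the first 5' UTR peak (chr8:84978540-84978718) rose by 1.03 (FDR 1e-05) in the authors' deposited table. The second, of 712 nt and also annotated 5' UTR (chr8:84977740-84978451), fell by 1.46 (FDR 7.9e-82), and the 3' UTR peak of 594 nt (chr8:84976910-84977503) fell by 1.65 (FDR 3.2e-57) in the authors' deposited table. These small FDRs stood beside some of the smaller falls among the AP-1 genes. Fold enrichments were 6.88, 34 and 80.5 from 5' to 3' in the authors' deposited table, and the peaks covered 80.7% of the gene. In DP cells they covered 37.2%, and neither peak passed. These DP peaks were listed at 0.66 (exon, FDR 0.19, chr8:84977977-84978333) and -0.08 (3' UTR, FDR 0.65, chr8:84977177-84977503) in the authors' deposited table.

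Jund encodes the Jun protein that is present in most cells without stimulation. It was the only AP-1 gene with a passing peak in both cell types, and the signs were opposite. On the strand of the gene, the Jund peak annotated 3' UTR fell by 3.18 in iNKT cells (chr8:70699693-70700378, 686 nt, fold enrichment 45.1) and rose by 0.335 in DP cells (chr8:70699634-70700259, 626 nt, fold enrichment 5.91, FDR 0.019) in the authors' deposited tables. The intervals shared 567 nt. For the iNKT peak the log10 of the FDR was listed at -434, the lowest value of that table, which 21 peaks share, and below the log10 of its own p-value, -370. This occurred for 3 iNKT peaks, so the FDR of this peak serves only to say that it passed. No test of the difference between the cell types can be made from these tables.

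A second Jund peak in each table lay on the opposite strand. By the authors' deposited tables it fell by 0.770 in iNKT cells (chr8:70699681-70700080, FDR 6.3e-12), and in DP cells it was listed at 0.12 and did not pass (chr8:70699567-70700080, FDR 0.54). It shared 388 nt with the peak on the gene's strand in iNKT cells and 447 nt in DP cells. Whether reads were counted by strand is not given in the sources used here, and without it reads of the 2 peaks cannot be told apart. Leaving these peaks out gave 11 lower AP-1 peaks in iNKT cells.

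Fos encodes c-Fos, the classical immediate early partner of Jun. Its 3 iNKT peaks all passed. The peak at the transcription start (chr12:85473890-85474009), which holds the Fos stretch above, rose by 2.26 (FDR 0.0029) in the authors' deposited table. Its 3' UTR peak of 655 nt (chr12:85476083-85476737) fell by 4.16 (FDR 3.2e-27), with a fold enrichment of 64.0 in the authors' deposited table. In exon 3 of 4 a 90 nt peak (chr12:85475609-85475698) fell by 1.49 (FDR 0.0071), but its fold enrichment of 1.16 in the authors' deposited table was close to the lowest of all iNKT peaks (1.14). Fos therefore resembled Junb in having a higher peak at the start and a lower one in the 3' UTR, whereas Jun was lower at both.

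In DP cells the Fos peaks were short and little enriched. The exon 3 peak (chr12:85475638-85475698) was listed at 0.01 (FDR 0.67) and the 3' UTR peak of 90 nt (chr12:85476559-85476648) at 1.19 (FDR 0.63), with fold enrichments of 1.60 and 2.80 in the authors' deposited table. No DP peak was listed at the start of Fos.

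Fosb encodes FosB, another immediate early Fos protein. It had the lowest value of all AP-1 peaks. In iNKT cells its 3' UTR peak of 718 nt (chr7:19304279-19304996) fell by 6.15 (FDR 3.2e-33), and its fold enrichment of 307 in the authors' deposited table exceeded that of 99.4% of iNKT peaks. The 5' UTR peak of 598 nt (chr7:19309454-19310051), which holds the Fosb stretch above, fell by 2.86 (FDR 3.6e-07) in the authors' deposited table. Between them, the authors' deposited table gave 2 exon peaks (chr7:19307572-19307781 and chr7:19306587-19306796) that did not pass, at -0.37 and -0.57 (FDR 0.76 and 0.51). The changes of Fosb thus passed at both ends and not in between. Its only DP peak (chr7:19304757-19304876) lay inside the iNKT 3' UTR peak and stood at 2.81 in the authors' deposited table (FDR 0.64), and no other AP-1 peak had a larger DP value.

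Fosl2 encodes Fra-2, a Fos protein without the strong activation domain of c-Fos. In iNKT cells it carried the highest value of all AP-1 peaks next to one of the lowest. The large 3' UTR peak, of 1020 exonic nt over 2 blocks (chr5:32150426-32153587), fell by 4.31 (FDR 3.2e-51), with a fold enrichment of 222 in the authors' deposited table. A 181 nt peak downstream of it, also annotated 3' UTR (chr5:32154066-32154246), rose by 7.05 (FDR 4e-21), with a fold enrichment of 5.02 in the authors' deposited table. Opposite changes thus stood in neighbouring peaks that share the annotation 3' UTR, the higher one in the weaker peak. Since the lower peak spans 2 blocks, not all of it need lie in the untranslated region. Neither of the upstream peaks passed. An exon peak (chr5:32136910-32137120) was listed at -0.48 (FDR 0.76), and a peak annotated 5' UTR (chr5:32135801-32136161) at -0.49 (FDR 0.59), in the authors' deposited table. This 5' UTR peak begins 671 nt before the RefSeq gene and does not overlap it.

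Batf encodes a small Fos-like factor that lacks an activation domain and acts with Jun proteins and IRF4. Its only peak, in the 3' UTR in DP cells (chr12:85708848-85708997), stood at 2.54 in the authors' deposited table (FDR 0.50, fold enrichment 6.22). As for Fosb in DP cells, a high value stood beside an FDR far from passing.

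By position, each of the 6 AP-1 genes had 1 lower peak in the 3' UTR in iNKT cells, and the other 6 lower peaks lay in the 5' UTR (4) and in exons (2). Of 7 peaks annotated 3' UTR, 6 were lower, 1 in each gene, and 1 was higher, against 22.2% lower and 5.18% higher among all iNKT peaks of this class. Their median log2 fold change was -3.18, against -1.0 for the class, and their median fold enrichment 64.0, against 8.16, in the authors' deposited table. In the strongest 25% of iNKT peaks of any class, 62.8% were lower. No share matched for both class and strength was computed. Of 7 peaks annotated 5' UTR, 4 were lower and 2 were higher, against 13.8% and 8.25% of the class. Of 6 exon peaks, 2 were lower and none was higher, against 19.5% and 5.67%. The lower exon peaks, that of Fos and that of Jund on the opposite strand, were little enriched, with fold enrichments of 1.16 and 3.56 in the authors' deposited table. Each peak carries 1 annotated class, whatever it spans. The lower iNKT peak of Junb annotated 5' UTR, for example, contains the whole Junb peak that is annotated exon in DP cells.

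**Figure D3:**
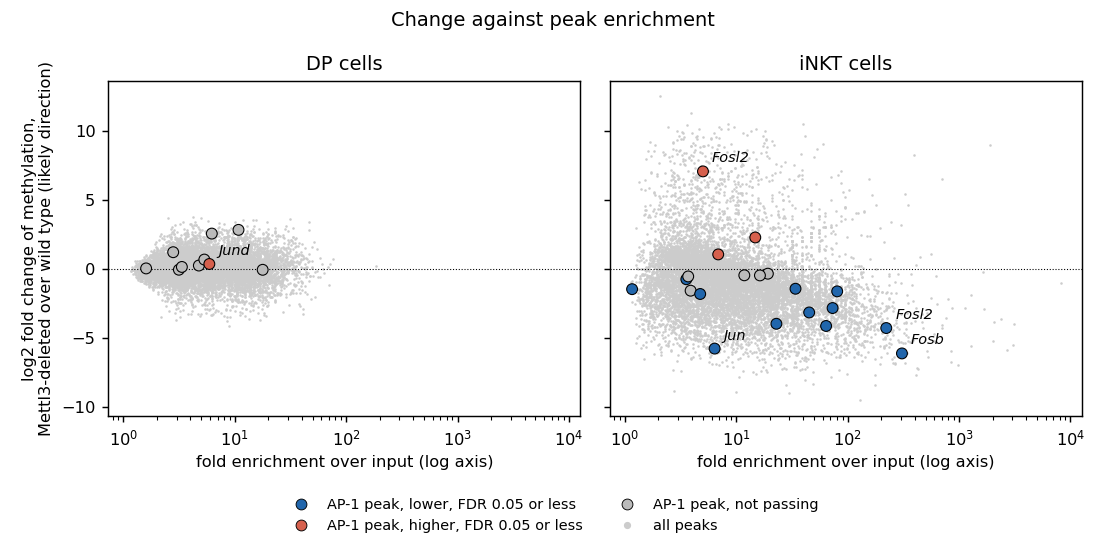
Log2 fold change of methylation, Mettl3-deleted over WT (likely direction), against fold enrichment over input (log axis) for all peaks (grey) and AP-1 peaks (coloured by call) in DP (left) and iNKT cells (right). The AP-1 peaks of Fosb (307) and Fosl2 (222) with the highest enrichment are both lower in iNKT cells, while the higher Fosl2 peak has an enrichment of 5.02.

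Nearly every DP peak of an AP-1 gene overlapped an iNKT peak, while 10 of the 20 iNKT peaks overlapped none in DP cells. Of the 10 DP peaks of AP-1 genes, 9 shared at least 1 exonic base with an iNKT peak on the same strand, all but that of Batf, and 10 of the 20 iNKT peaks shared a base with a DP peak. One of these pairs, in the 5' UTR of Jun, rested on a single base. The 10 iNKT peaks so matched all passed as lower, with log2 fold changes between -0.77 and -6.15, while their DP counterparts ran between -0.09 and 2.81 and only Jund passed. The 3 higher iNKT peaks, in Junb, Fos and Fosl2, had no DP counterpart. The share of all peaks with a counterpart was not computed, so none of these overlaps is shown to be particular to AP-1 genes. Fold enrichments at the matched 3' UTR peak of Jund were 45.1 in iNKT cells and 5.91 in DP cells, and those at the 3' UTR of Jun were 4.74 in iNKT cells and 17.8 in DP cells, in the authors' deposited tables. The tables were made separately, so these levels stand side by side without a test.

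Genes around AP-1 were counted in lists chosen with earlier results of these data known. None of the 6 lists had a passing DP peak of either sign in the authors' deposited table. Of their 100 DP peaks, 6 were lower and 5 higher at an unadjusted p of 0.05, close to the 6.5% and 6.18% of all DP peaks, and between 4 and 12 genes of a list had a DP peak. By the FDR, 1.44% of all genes with a DP peak had a lower and 0.876% a higher one. All 57 passing peaks, in 35 genes, came from iNKT cells, and each overlaps the gene it is named after. The values below are changes in methylation of single peaks and not in RNA level. Each is the passing peak with the largest change of its gene, unless another is named. In iNKT cells, 9.64% of all genes with a peak had a higher one, besides the 26.2% with a lower one.

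Upstream of AP-1, kinases carry the signal to the Jun and Fos promoters and proteins. The list held 17 genes, for such kinases and for ternary complex factors with their partner Srf. Of these, 11 had an iNKT peak, 7 with a lower and 1 with a higher one. A 3' UTR peak of Srf, which encodes the serum response factor that switches on Fos, fell by 6.81 (FDR 1.6e-19) in the authors' deposited table. A peak of Elk4, for a ternary complex factor that acts with it, fell by 3.09 (FDR 1e-10) in the authors' deposited table. For Map3k1, a kinase at the top of the Jun N-terminal kinase cascade, a peak fell by 5.14 (FDR 3e-07) in the authors' deposited table. A 5' UTR peak of Rps6ka1, which encodes a kinase downstream of ERK, rose by 5.63 (FDR 0.0029) in the authors' deposited table. Among all genes with an iNKT peak, 26.2% had a lower and 9.64% a higher one, a background not matched for peak number or strength.

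Relatives of the basic leucine zipper family were counted as lower in 4 of the 11 genes with an iNKT peak (of 16 listed), and none was higher. A peak of Nfe2l1, a relative that responds to proteasome stress, fell by 6.98 (FDR 0.00031) in the authors' deposited table. A 5' UTR peak of Maf, a factor of T helper cytokine genes, fell by 3.89 (FDR 1e-133) in the authors' deposited table. For the small Maf proteins, a peak of Maff fell by 2.65 and a peak of Mafk by 1.08 in the authors' deposited table. At 36.4% of genes this list was the closest of the 6 to the background of 26.2%.

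Partners at composite DNA sites (8 listed, 7 with an iNKT peak) had lower peaks in 4 genes and higher peaks in 3. For Nfatc1 and Nfatc2, the calcium-regulated partners of AP-1, an exon peak fell by 5.05 and a 3' UTR peak by 4.88 in the authors' deposited table. A 3' UTR peak of Ets1 fell by 2.96 in the authors' deposited table. Another exon peak of Nfatc1 rose by 4.76 (FDR 7.9e-21) in the authors' deposited table. By the authors' deposited table a 5' UTR peak of Runx3 rose by 8.20 while its 3' UTR peak fell by 3.24 (FDR 5e-22), and an exon peak of Runx1 rose by 7.58. This list held the most genes with a higher peak, and all genes with an iNKT peak stood at 26.2% lower and 9.64% higher.

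Regulators of the turnover of AP-1 proteins and transcripts (10 symbols, of which Cop1 and Rfwd2 name 1 gene) had lower peaks in 4 of 5 genes with an iNKT peak and no higher one. Zfp36, Zfp36l1 and Zfp36l2 encode proteins that bind AU-rich 3' UTRs such as that of Fos and promote decay. Their peaks with the largest change fell by 5.12, 4.17 and 3.43 in the authors' deposited table. Another peak of Zfp36l1 fell by 0.874 and another of Zfp36l2 by 1.48 in the authors' deposited table. A 5' UTR peak of Fbxw7, which encodes a ubiquitin ligase subunit for c-Jun, fell by 3.96 (FDR 7.9e-14) in the authors' deposited table. A lower peak was found in 26.2% of all genes with an iNKT peak, and in 36.6% of those with 2 to 4 peaks. This list held 21 iNKT peaks in its 5 genes, so its count has no matched background here.

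Among 10 target genes in T cells, 6 had an iNKT peak, 3 a lower and 1 a higher one. A 3' UTR peak of Dusp1, which encodes a phosphatase that ends MAP kinase signals, fell by 4.68 (FDR 1e-246) in the authors' deposited table. The 5' UTR peak of Dusp1 fell by 0.995, and a 3' UTR peak of Ccnd2, a G1 cyclin gene, by 4.19 in the authors' deposited table. A 3' UTR peak of Cd69, an early activation marker, fell by 2.18 (FDR 0.012) in the authors' deposited table. An exon peak of Tnf, a cytokine gene, rose by 10.1 (FDR 1e-32) in the authors' deposited table. The list of other immediate early genes held 15, and all had an iNKT peak, with a lower one in 9 and a higher one in 2. Whether each is induced in these cells was not measured. Peaks of Nr4a3 and Klf6 had -5.23 and -4.71, of Myc and Klf2 -4.58 and -4.17, and of Ier2 and Klf4 -3.90 and -3.89 in the authors' deposited table. Another Myc peak, in the 3' UTR, had -1.84 in the authors' deposited table. Klf4 also had a higher exon peak (1.69, FDR 0.012), and Btg2 one in its 3' UTR (2.93, FDR 0.00021), in the authors' deposited table. The counts of both lists stand beside 26.2% lower and 9.64% higher among all genes with an iNKT peak, without matching for peak number or strength.

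**Figure D4:**
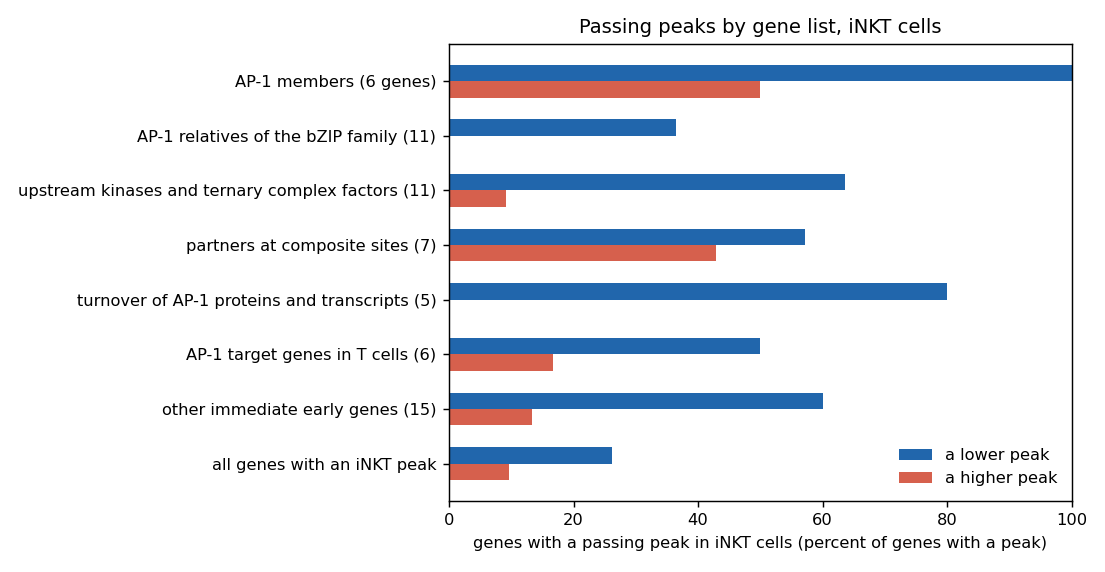
Percent of genes with an iNKT peak that had a lower (blue) or a higher (red) passing peak in Mettl3-deleted cells, for AP-1 members, for the 6 lists around them and for all genes (bottom). The number of genes with a peak is in brackets; all genes stand at 26.2% lower and 9.64% higher, and genes with more or stronger peaks pass more often.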

How the data were processed

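The members and the gene lists were chosen with earlier results of these data known. Fragments of poly(A) RNA of about 150 nt were immunoprecipitated, per the labels' protocols. The submitters' processing notes name HOMER 4.9.1, RSEM 1.3.0, STAR 2.6.0a, FastQC 0.11.5, Trim Galore 0.6.5 and mm10; the sources used here do not give which program called the peaks or whether replicates were pooled. The authors' deposited tables hold, per the file headers, a p-value of each peak, a fold enrichment (linear ratio), a log2 fold change between genotypes, and log10 p-values and FDRs treated as scores. The deposited tables are named after the exomePeak package, and their column names are those of that package.

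From these, repeated rows were kept 1 time (5 removed for DP cells, 24 for iNKT cells, none of AP-1 genes), peaks were called at an FDR of 0.05, and counts were set beside the background. No test over samples was possible. BED starts were made 1-based. Gene bounds and windows are RefSeq's (GRCm38.p6, the mm10 build). All 8 members and every listed gene with a peak are described or counted; from each list, up to 6 passing genes with the largest change are named, apart from items not reported here. The step that applies the FDR cut was run on values set in advance, which checks the code and not the deposited calls. Python 3.11.15 was used with matplotlib 3.10.9, pandas 2.3.3, numpy 2.4.6 and SciPy 1.17.1.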

Additional observations from a re-analysis of the deposited data

How the results depend on the processing

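Counts of AP-1 peaks and genes, medians, matches between the tables and the background were recomputed with an FDR of 0.01 or 0.1, a change of at least 2-fold, a fold enrichment of at least 2, repeated rows kept, only peaks that overlap the named gene, the strongest peak of each gene, 2 other matching rules and, chosen after seeing the data, only peaks on the gene's strand. No value reversed, and 79 of 90 were the same (counts and shares within 1.5 times, medians within the 95% interval of the main median). Some of these could not move, since no repeated row was of an AP-1 gene and all 10 DP peaks overlap the named gene. The higher Jund peak in DP cells was lost at an FDR of 0.01 and with a change of at least 2-fold (0 peaks and 0 genes each). Over the strongest peak of each gene the median change was -3.67 in iNKT cells and 0.923 in DP cells. Over all AP-1 peaks it was -1.54 and 0.28. The iNKT value lay outside the interval of the main median (-3.18 to -0.49), and the DP value inside its own. These intervals take peaks of the same gene as independent, and serve here only as a yardstick. The same median over all genes was not computed, and strong iNKT peaks were lower more often in general. All DP peaks passed as lower at 0.297% and as higher at 0.193% with an FDR of 0.01, at 1.25% and 0.825% with an FDR of 0.1, and at 0.0743% and 0.171% with a change of at least 2-fold. No paired analysis was possible because the tables hold no values per library, and for the same reason no replicate could be left out. Depth is unknown.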

Other observations

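The deposited gene lists name Jun and Junb for DP cells and Jun, Junb, Jund, Fos, Fosb and Fosl2 for iNKT cells. Neither Jun nor Junb had a passing DP peak, so a place in these lists is not a call at an FDR of 0.05. Of the 4337 entries of the DP list 4336 are genes with a negative DP peak, and of the 5340 of the iNKT list 5339 are genes with a negative iNKT peak, whatever the FDR; the remaining entry of each list is written NA.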
